A study of Homo sapiens with 12 samples.

Results

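The expression of 9 colonocyte surface differentiation antigens, GPA33, CDH17, EPCAM, CEACAM1, CEACAM5, CEACAM6, TSPAN8, LGALS4 and KRT20, was compared across 4 stable lines of HCT116, a poorly differentiated human colorectal cancer cell line. The genes were taken by symbol from the 28395 genes of the deposited count table, where each of the 9 matched 1 gene. HCT116EV cells carried the empty pcDNA vector and HCT116EHF cells an EHF expression plasmid, and both were selected as geneticin-resistant clones. HCT116CDX1 cells carried a CDX1 retrovirus with a GFP marker and were sorted for GFP, and HCT116EHF+CDX1 cells were described as geneticin-resistant clones of HCT116CDX1 cells transfected with the EHF plasmid. All lines were grown in DMEM-F12 with serum, and each was measured as 3 polyA RNA-seq libraries, 12 in all. The study speaks of biological replicates of these data, but in a number other than the libraries of a line, and the sources used here did not say which libraries came from separate cultures, so the p-values measure the spread between these libraries, which may be technical. Each line is 1 selected population, and differences between lines that arose during selection cannot be told apart from effects of EHF or CDX1.

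EHF is an ETS-family transcription factor and CDX1 a caudal-related homeobox factor, and both are made by the normal colonic epithelium. As colonocytes leave the crypt base and mature, they place adhesion molecules, glycoproteins and tetraspanins on their surface, and several of these are used as tumour antigens or diagnostic markers. GPA33 is an immunoglobulin-family membrane antigen of the intestinal epithelium, CDH17 (liver-intestine cadherin) and EPCAM are cell adhesion proteins, and CEACAM1, CEACAM5 (carcinoembryonic antigen) and CEACAM6 are members of 1 family of carcinoembryonic antigen-related adhesion molecules. TSPAN8 is a tetraspanin. LGALS4 (galectin-4) is a lectin without a membrane anchor that binds glycans at the apical surface, and KRT20 is a cytoskeletal keratin of mature colonocytes, so the word surface applies to these last genes only loosely.

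Reads were counted per gene, and the total per library ranged from 13523007 to 74186741. Levels are given as reads or as CPM, reads scaled to a common library size after TMM normalization, and a gene was tested if it reached 0.5 CPM in at least 3 libraries, which held for 15853 genes. A gene was called higher or lower where edgeR found a change of more than 1.5-fold at an adjusted p below 0.05, and log2 fold changes are given with their standard error (SE) and the adjusted p of edgeR's test against no change. The targeted genes followed the labels, but their doses differed between lines. CDX1 was at 525 ± 35.8 CPM in HCT116CDX1 and 5419 ± 277 CPM in HCT116EHF+CDX1 cells, and held at most 4 reads in any library of the other lines. EHF was at 299 ± 54.4 CPM in HCT116EV, 12.3 ± 0.603 CPM in HCT116CDX1, 19312 ± 305 CPM in HCT116EHF and 18708 ± 1433 CPM in HCT116EHF+CDX1 cells (SD, n = 3 each). Although described as derived from HCT116CDX1 cells, the HCT116EHF+CDX1 line had 3529 genes called higher and 2970 lower than HCT116CDX1, and 395 higher and 30 lower than HCT116EHF cells. Scaled to library totals without TMM factors, the former were 5074 higher and 1765 lower, with the median of all genes at 0.39 on the log2 scale, so changes against HCT116CDX1 cells are relative to the TMM scaling. HCT116EV replicate 3 stood apart, with a correlation of 0.959 to 0.960 with the other HCT116EV libraries against 0.990 to 0.996 between all other libraries of a line. Log2 fold changes printed for the antigens are therefore given both ways where they moved by more than 1.5-fold, or the call changed, when it was left out. Lower bounds for CEACAM5 and TSPAN8, which had no HCT116EV read, are given with all HCT116EV libraries only. The 7 colorectal epithelial markers examined, CDH1, EPCAM, KRT8, KRT18, KRT19, CLDN7 and CDX2, all averaged above 0.5 CPM in every line, with a summed level of 4818 to 5637 CPM in HCT116EV, 4431 to 4571 in HCT116EHF, 2581 to 3129 in HCT116CDX1 and 4787 to 5026 in HCT116EHF+CDX1 libraries. Most of each sum came from KRT8, KRT18 and KRT19. These 3 were called lower in HCT116CDX1 than in HCT116EV cells, and 1 of the 7, EPCAM, higher (23.3% of all genes lower, 21.3% higher).

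In HCT116EHF+CDX1 cells 8 of the 9 antigens were called higher than in HCT116EV cells and none lower, where 7.30% of all genes tested were called higher and 3.13% lower. EPCAM was the exception. The same 8 antigens were called higher in HCT116EHF+CDX1 than in HCT116EHF cells (2.49% of all genes higher, 0.189% lower) and than in HCT116CDX1 cells (22.3% higher, 18.7% lower). All 3 HCT116EHF+CDX1 libraries lay above all 9 other libraries for these 8 antigens, as they did for 6.06% of all genes. The count needs care because 5 of them, GPA33, CDH17, CEACAM5, CEACAM6 and TSPAN8, reached the minimum of 0.5 CPM only in HCT116EHF+CDX1 libraries and could be tested only through the line in which they were high. The other 4 antigens, EPCAM, CEACAM1, LGALS4 and KRT20, passed the minimum without that line, and 3 of these 4 were called higher there. The 8 also include CEACAM5 and TSPAN8, which had no HCT116EV read. Of the antigens with more than 3 reads in both lines, 6 of 7 were called higher against HCT116EV and 7 of 8 against HCT116EHF cells. The median log2 fold change of the 9 was 7.34 over HCT116EV, 6.76 over HCT116EHF and 5.56 over HCT116CDX1 cells, beside -0.03, 0.00105 and 0.04 over all genes, and the 3 comparisons share the HCT116EHF+CDX1 libraries. These medians include the 5 antigens that could be tested only through that line, so their distance from the values over all genes needs the same care. The median over HCT116EV is the value of CEACAM6, whose 5 reads in that line were all in replicate 3.

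Fewer antigens differed with either factor alone. In HCT116EHF cells, compared with HCT116EV cells, TSPAN8 was called higher and KRT20 lower (5.68% of all genes higher, 2.65% lower). In HCT116CDX1 cells, again against HCT116EV cells, EPCAM, TSPAN8 and LGALS4 were called higher and none lower (21.3% higher, 23.3% lower). TSPAN8 had no HCT116EV read and could be tested only through the HCT116EHF+CDX1 line. Of the antigens with more than 3 reads in both lines, 0 of 6 were called higher and 1 lower in HCT116EHF cells. In HCT116CDX1 cells 2 of 7 such antigens were called higher and 0 lower. The single lines also differed from each other. TSPAN8, LGALS4 and KRT20 were called lower in HCT116EHF than in HCT116CDX1 cells, and none higher (21.2% of all genes higher, 19.1% lower). By the weaker test against no change, antigens called higher and lower numbered 3 and 1 in HCT116EHF over HCT116EV (14.9% and 15.1% of all genes), 3 and 0 in HCT116CDX1 over HCT116EV (33.8% and 35.1%), 8 and 0 in HCT116EHF+CDX1 over HCT116EV (16.9% and 16.7%), 8 and 0 over HCT116EHF (5.65% and 4.13%) and 8 and 1 over HCT116CDX1 (34.9% and 32.3%). For HCT116EHF over HCT116CDX1 cells they numbered 1 and 4 (33.5% and 32.7%). These tallies include antigens with at most 3 reads in a line.

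**Figure D1:**
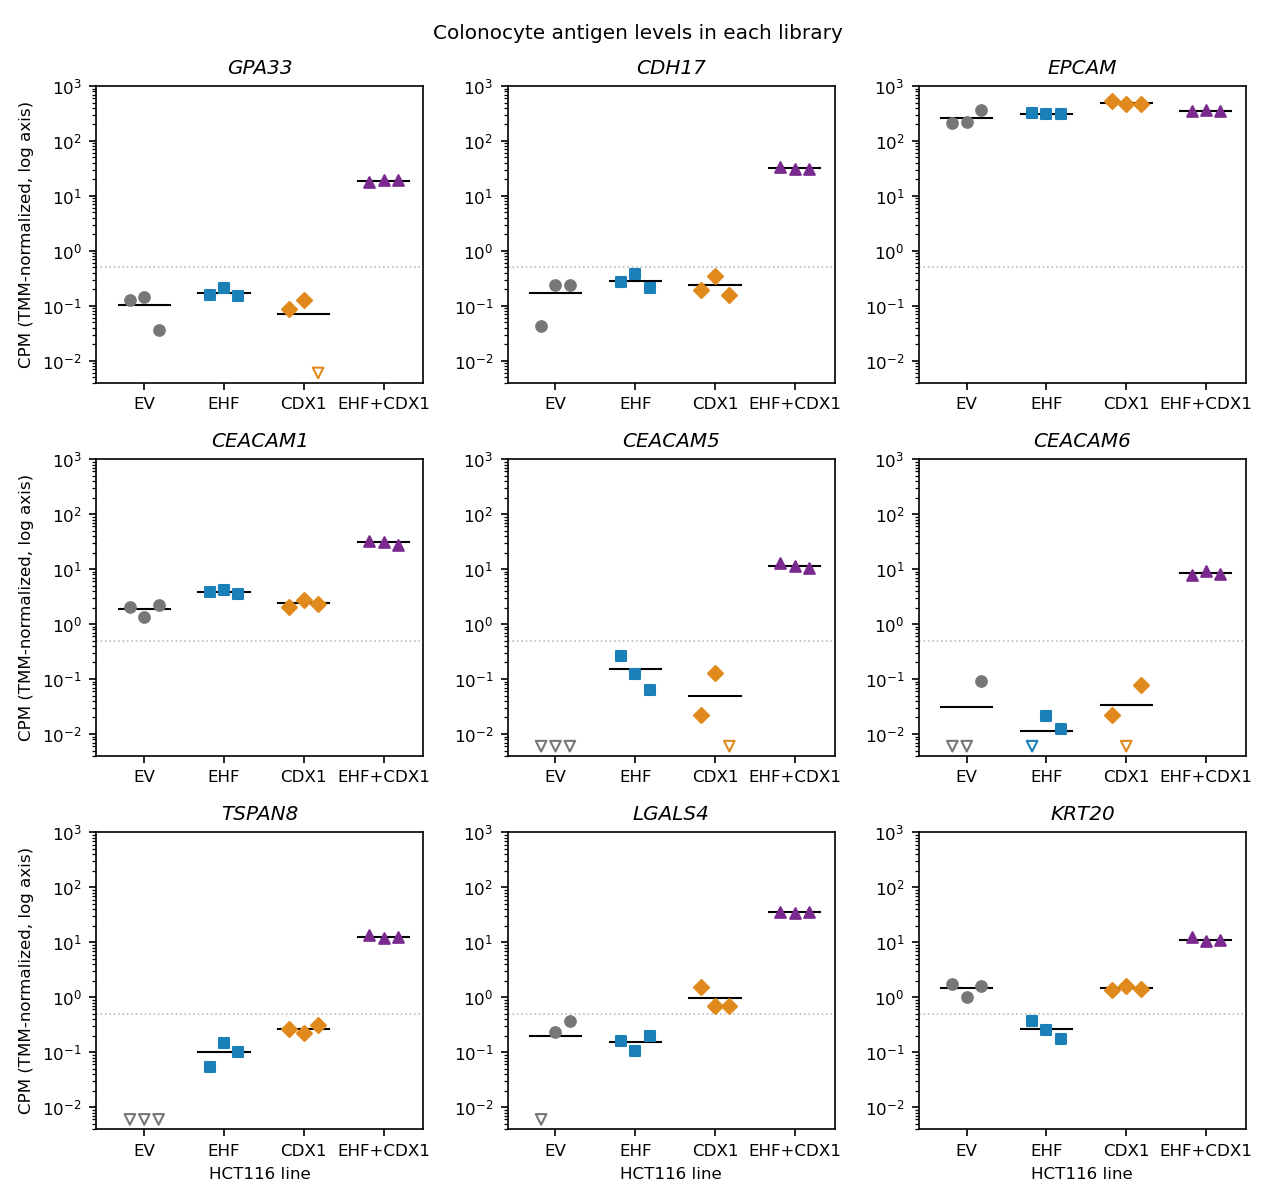
Level of each antigen in the 12 libraries, in TMM-normalized CPM on a log axis, with 3 libraries per line, a black line at the mean, open triangles at the bottom for libraries with no read and a dotted line at the minimum of 0.5 CPM. The HCT116EHF+CDX1 libraries lie above all others for every antigen except EPCAM.

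GPA33 (Entrez 10223, chromosome 1, 167052836 to 167090377 on GRCh38.p14, minus strand) was barely detected without both factors. The 3 HCT116EV libraries held 3, 3 and 2 reads, the HCT116EHF libraries 3, 10 and 12, and the HCT116CDX1 libraries 4, 5 and 0. In HCT116EHF+CDX1 libraries it was at 18.2, 19.3 and 19.6 CPM, from 1040, 1016 and 284 reads. The log2 fold change over HCT116EV cells was 7.78 (SE 0.43, edgeR adjusted p = 1.37e-07), and the ratio of the pooled reads was 232 with an exact 95% interval of 118 to 538. Without HCT116EV replicate 3 the log2 fold change was 7.10 (SE 0.32). Such intervals cover counting error only. Against HCT116EHF cells the log2 fold change was 6.76 (SE 0.37, edgeR adjusted p = 6.29e-07) and against HCT116CDX1 cells 7.98 (SE 0.41, edgeR adjusted p = 2.95e-08). The level in HCT116EHF cells, 0.150 to 0.210 CPM, lay above that in HCT116EV cells, 0.0368 to 0.142 CPM, without overlap, but the difference did not pass the test (log2 fold change 1.02, SE 0.61, edgeR adjusted p = 0.238, and 0.33 without HCT116EV replicate 3). In bulk RNA, fewer cells with a transcript and less of it per cell cannot be told apart.

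CDH17 (Entrez 1015, chromosome 8, 94127162 to 94217278, minus strand) behaved in the same way. HCT116EV libraries held 1, 5 and 13 reads, HCT116EHF libraries 5, 18 and 17, and HCT116CDX1 libraries 9, 14 and 6, all below 0.5 CPM and overlapping between these lines. The HCT116EHF+CDX1 libraries were at 33.5, 30.9 and 30.9 CPM, from 1919, 1626 and 447 reads. This was a log2 fold change of 6.81 over HCT116EHF (SE 0.31, edgeR adjusted p = 2.02e-07) and 7.07 over HCT116CDX1 cells (SE 0.31, edgeR adjusted p = 1.23e-08), and the pooled reads were 167 times those of HCT116EV cells (exact 95% interval 107 to 277). Neither single line differed from HCT116EV cells by the test, with log2 fold changes of 0.56 (SE 0.44) for EHF and 0.31 (SE 0.46) for CDX1.

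EPCAM (Entrez 4072, chromosome 2, 47369311 to 47387020, plus strand), a pan-epithelial adhesion molecule, was abundant in every line. It was at 213, 222 and 360 CPM in HCT116EV, 316, 310 and 308 in HCT116EHF, 527, 477 and 469 in HCT116CDX1 and 354, 364 and 351 CPM in HCT116EHF+CDX1 libraries. The third HCT116EV library thus lay in the range of HCT116EHF+CDX1 cells, while the HCT116CDX1 libraries were above those of every other line in CPM, though not in the quantile-normalized log2 RPKM values. The log2 fold change of HCT116CDX1 over HCT116EV cells was 0.89 (SE 0.17, edgeR adjusted p = 0.000469), and 1.17 (SE 0.06) without HCT116EV replicate 3. That call was lost in 9 of 22 other settings, with values down to 0.54. For HCT116EHF+CDX1 over HCT116EV cells it was 0.43 (SE 0.16, edgeR adjusted p = 0.0662), which was not called, and 0.71 (SE 0.06, edgeR adjusted p = 1.04e-08) without that library, which was. Between HCT116EHF+CDX1 and HCT116CDX1 cells no change above 1.5-fold was called (log2 fold change -0.46, SE 0.16, edgeR adjusted p = 0.0263), and with quantile normalization the value was 0.04, of the opposite sign, so no direction is given.

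The CEACAM genes differed in their starting level. CEACAM1 (Entrez 634, chromosome 19, 42507306 to 42528481, minus strand), an inhibitory adhesion receptor, was detected throughout, at 2.07, 1.33 and 2.19 CPM in HCT116EV, 3.78, 4.22 and 3.55 in HCT116EHF, 2.06, 2.78 and 2.34 in HCT116CDX1 and 32.4, 31.6 and 28.1 CPM in HCT116EHF+CDX1 libraries. It rose by 4.02 on the log2 scale over HCT116EV cells (SE 0.19, edgeR adjusted p = 4.40e-08), by 3.0 over HCT116EHF (SE 0.18, edgeR adjusted p = 1.03e-06) and by 3.68 over HCT116CDX1 cells (SE 0.18, edgeR adjusted p = 2.23e-08). In HCT116EHF cells alone all 3 libraries lay above those of HCT116EV cells, with a log2 fold change of 1.02 (SE 0.18, edgeR adjusted p = 0.00152) that differed from no change and missed the 1.5-fold test (edgeR adjusted p = 0.0545). Without HCT116EV replicate 3 it passed (log2 fold change 1.16, edgeR adjusted p = 0.0122). Exons of CEACAM1 overlap those of LIPE-AS1 on the opposite strand over 185 bases, and since the strand setting of the counting was not given in the sources used here, reads in these bases could come from either gene.

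CEACAM5 (Entrez 1048, chromosome 19, 41708626 to 41730519, plus strand) had no read in any HCT116EV library. HCT116EHF libraries held 5, 6 and 5 reads and HCT116CDX1 libraries 1, 5 and 0, against 730, 605 and 149 reads, or 12.8, 11.5 and 10.3 CPM, in HCT116EHF+CDX1 libraries. With 3 reads over the HCT116EV group taken as the limit that a count of 0 allows, the level in HCT116EHF+CDX1 cells was at least 393-fold higher (edgeR adjusted p = 4.91e-06) and that in HCT116EHF cells at least 3.60-fold higher, the latter not called by the 1.5-fold test. This limit was 0.0304 CPM, and without HCT116EV replicate 3 it is 0.0676 CPM, so these bounds would be lower without that library. The log2 fold change over HCT116EHF cells was 6.59 (SE 0.51, edgeR adjusted p = 2.68e-05) and over HCT116CDX1 cells 7.81 (SE 0.56, edgeR adjusted p = 1.16e-06). CEACAM6 (Entrez 4680, chromosome 19, 41755530 to 41772211, plus strand), which like CEACAM5 is tethered to the membrane by a lipid anchor, was also scarce outside HCT116EHF+CDX1 cells. It held 5 reads in HCT116EV cells, all in replicate 3, 2 in HCT116EHF and 4 in HCT116CDX1 cells, and was at 7.91, 9.17 and 8.02 CPM in HCT116EHF+CDX1 libraries. The pooled reads were 167 times those of HCT116EV (exact 95% interval 71.3 to 515), 619 times those of HCT116EHF (171 to 5118) and 262 times those of HCT116CDX1 cells (102 to 965). The value against HCT116EV rests on replicate 3. Without it no HCT116EV read is left, and the level in HCT116EHF+CDX1 cells was at least 125-fold higher, against 3 reads over the other HCT116EV libraries. Stretches of 150 bases shared with another annotated gene made up 0.328% of those in CEACAM5 and 0.0356% of those in CEACAM6, and none of those in the other 7 antigens, CEACAM1 included.

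The 3 CEACAM genes are paralogs on chromosome 19, and the 250 bases before their start sites are shown because they are similar while the genes' levels without both factors were not. The sequences are from RefSeq on GRCh38.p14, 5′ to 3′ in the direction of transcription. Capitals mark each match, on either strand, to TTTAT or TTTAC, core letters of caudal-type sites, and to AGGAAG or CGGAAG, extended forms of the GGAA core of ETS sites. GGAA with other flanking letters was not marked or counted. On the other strand TTTAT reads ATAAA, letters that TATA boxes also hold. CEACAM1 lies at chr19:42528482-42528731, minus strand, CEACAM5 at chr19:41708376-41708625, plus strand, and CEACAM6 at chr19:41755280-41755529, plus strand.
CEACAM1: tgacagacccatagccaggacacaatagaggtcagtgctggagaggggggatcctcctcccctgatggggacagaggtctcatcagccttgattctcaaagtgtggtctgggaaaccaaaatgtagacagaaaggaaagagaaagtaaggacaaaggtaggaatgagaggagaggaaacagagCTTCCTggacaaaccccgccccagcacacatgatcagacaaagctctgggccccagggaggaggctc
CEACAM5: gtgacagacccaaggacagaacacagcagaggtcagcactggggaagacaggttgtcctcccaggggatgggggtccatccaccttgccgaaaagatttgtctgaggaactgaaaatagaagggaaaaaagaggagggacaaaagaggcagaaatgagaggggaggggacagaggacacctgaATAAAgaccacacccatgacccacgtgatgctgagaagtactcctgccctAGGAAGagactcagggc
CEACAM6: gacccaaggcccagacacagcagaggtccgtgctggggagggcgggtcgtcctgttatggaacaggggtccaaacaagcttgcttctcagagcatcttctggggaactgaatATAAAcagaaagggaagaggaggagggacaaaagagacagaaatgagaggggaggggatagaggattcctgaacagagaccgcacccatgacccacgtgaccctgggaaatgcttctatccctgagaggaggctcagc
In a pairwise alignment, identical bases made up 72.0% of the aligned positions of CEACAM1 and CEACAM5, 74.4% of CEACAM1 and CEACAM6 and 78.5% of CEACAM5 and CEACAM6, against 56.3% to 68.3% for pairs with or among GPA33, LGALS4 and KRT20. The CEACAM1 window held CTTCCT, which is AGGAAG on the other strand, from base -67 to -62 before the start site and no TTTAT on either strand. That of CEACAM5 held ATAAA from -67 to -63 and AGGAAG from -17 to -12, and that of CEACAM6 held ATAAA from -138 to -134. Such matches are a description of the letters and do not show binding.

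TSPAN8 (Entrez 7103, chromosome 12, 71125096 to 71157999, minus strand), which associates with integrins and other adhesion proteins in membrane microdomains, had no read in HCT116EV libraries and increased in every other line. HCT116EHF libraries held 1, 7 and 8 reads (0.0532 to 0.147 CPM), and HCT116CDX1 libraries 12, 9 and 12 (0.263, 0.227 and 0.309 CPM). In HCT116EHF+CDX1 libraries it was at 13.5, 12.1 and 12.4 CPM, from 774, 637 and 179 reads. Against the limit of 3 reads over the HCT116EV group, TSPAN8 was at least 3.60-fold higher in HCT116EHF (edgeR adjusted p = 0.00164), at least 8.75-fold higher in HCT116CDX1 (edgeR adjusted p = 2.56e-05) and at least 421-fold higher in HCT116EHF+CDX1 cells (edgeR adjusted p = 6.41e-08). As for CEACAM5, these bounds would be lower without HCT116EV replicate 3. The call in HCT116EHF cells rests on 16 reads, and in 8 of 22 other settings no antigen was called higher in that comparison. HCT116EHF+CDX1 cells exceeded HCT116CDX1 cells by 5.56 on the log2 scale (SE 0.24, edgeR adjusted p = 4.66e-08). HCT116EHF was below HCT116CDX1 by a log2 fold change of -1.27 (SE 0.33, edgeR adjusted p = 0.00638), a call lost in 8 of 18 other settings and of the opposite sign (0.99) when all libraries were thinned to the smallest one.

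LGALS4 (Entrez 3960, chromosome 19, 38801674 to 38812945, minus strand) was one of the 3 antigens called higher with CDX1 alone. HCT116EV libraries held 0, 5 and 20 reads and HCT116EHF libraries 3, 5 and 16, all below 0.5 CPM. HCT116CDX1 libraries were at 1.53, 0.707 and 0.695 CPM, with replicate 1 above the others, and HCT116EHF+CDX1 libraries at 35.5, 34.7 and 36.4 CPM. The log2 fold change of HCT116CDX1 over HCT116EV cells was 2.02 (SE 0.51, edgeR adjusted p = 0.00394), and without HCT116CDX1 replicate 1 it was 1.54 and not called (edgeR adjusted p = 0.0607 against 1.5-fold). Without HCT116EV replicate 3 it was 3.11. HCT116EHF+CDX1 cells were higher than HCT116CDX1 cells by a log2 fold change of 5.16 (SE 0.38, edgeR adjusted p = 3.33e-07) and than HCT116EV cells by 7.18 (SE 0.46, edgeR adjusted p = 4.98e-07), or 8.26 (SE 0.39) without HCT116EV replicate 3. EHF alone gave no call (log2 fold change -0.57, SE 0.66, and 0.52 without that library).

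KRT20 (Entrez 54474, chromosome 17, 40875889 to 40885242, minus strand) was lower with EHF alone and higher with both factors. It was at 1.77, 0.994 and 1.58 CPM in HCT116EV, 0.372, 0.252 and 0.175 in HCT116EHF, 1.36, 1.59 and 1.39 in HCT116CDX1 and 12.3, 10.5 and 10.8 CPM in HCT116EHF+CDX1 libraries. The HCT116EHF libraries lay below every other library, and the HCT116EHF+CDX1 libraries above. In HCT116EHF cells KRT20 was lower, with a log2 fold change of -2.61 over HCT116EV cells (SE 0.29, edgeR adjusted p = 4.75e-05), and in HCT116CDX1 cells it was -0.02 (SE 0.24). With both factors it rose by 2.94 over HCT116EV (SE 0.24, edgeR adjusted p = 2.68e-06) and by 5.55 over HCT116EHF cells (SE 0.29, edgeR adjusted p = 4.24e-07).

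Among the 7 antigens with a promoter in the RefSeq table, TTTAT on either strand was found before KRT20, CEACAM5, CEACAM6 and both start sites of TSPAN8, and not before GPA33, CEACAM1 and LGALS4. Of 35116 windows of 250 bases before annotated start sites, 32.7% held TTTAT, 25.2% TTTAC, 28.7% AGGAAG and 16.5% CGGAAG, on either strand. AGGAAG was found once each before CEACAM1, CEACAM5 and LGALS4, and CGGAAG before none. The windows of KRT20 (chr17:40885243-40885492, minus strand), the only antigen called lower in HCT116EHF than in HCT116EV cells, of TSPAN8 (chr12:71157810-71158059, minus strand, its second start site), and of GPA33 (chr1:167090378-167090627, minus strand), which holds none of these letters, are shown with the same marks.
KRT20: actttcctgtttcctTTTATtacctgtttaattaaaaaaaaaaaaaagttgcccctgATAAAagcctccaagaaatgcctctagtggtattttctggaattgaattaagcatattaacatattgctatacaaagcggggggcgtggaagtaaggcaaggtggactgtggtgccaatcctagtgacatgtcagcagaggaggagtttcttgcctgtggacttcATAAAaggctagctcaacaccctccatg
TSPAN8: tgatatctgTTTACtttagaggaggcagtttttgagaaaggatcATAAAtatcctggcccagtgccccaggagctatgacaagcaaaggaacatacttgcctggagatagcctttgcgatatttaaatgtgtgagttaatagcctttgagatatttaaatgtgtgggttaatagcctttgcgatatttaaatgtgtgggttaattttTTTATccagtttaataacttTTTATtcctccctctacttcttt
GPA33: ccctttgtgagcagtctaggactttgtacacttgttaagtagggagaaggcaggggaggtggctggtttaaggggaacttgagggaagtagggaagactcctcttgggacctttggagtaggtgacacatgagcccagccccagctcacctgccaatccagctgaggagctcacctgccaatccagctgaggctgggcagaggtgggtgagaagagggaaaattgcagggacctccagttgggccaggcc
KRT20 held 3 matches to TTTAT, the nearest from -28 to -24. The TSPAN8 window held 3 matches to TTTAT and 1 to TTTAC. That of its first start site, not shown, held 1 match to each, in letters that the overlapping window shown also holds. That GPA33 has no match says only that these letters are not in this window, which does hold the shorter GGAA.

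**Figure D2:**
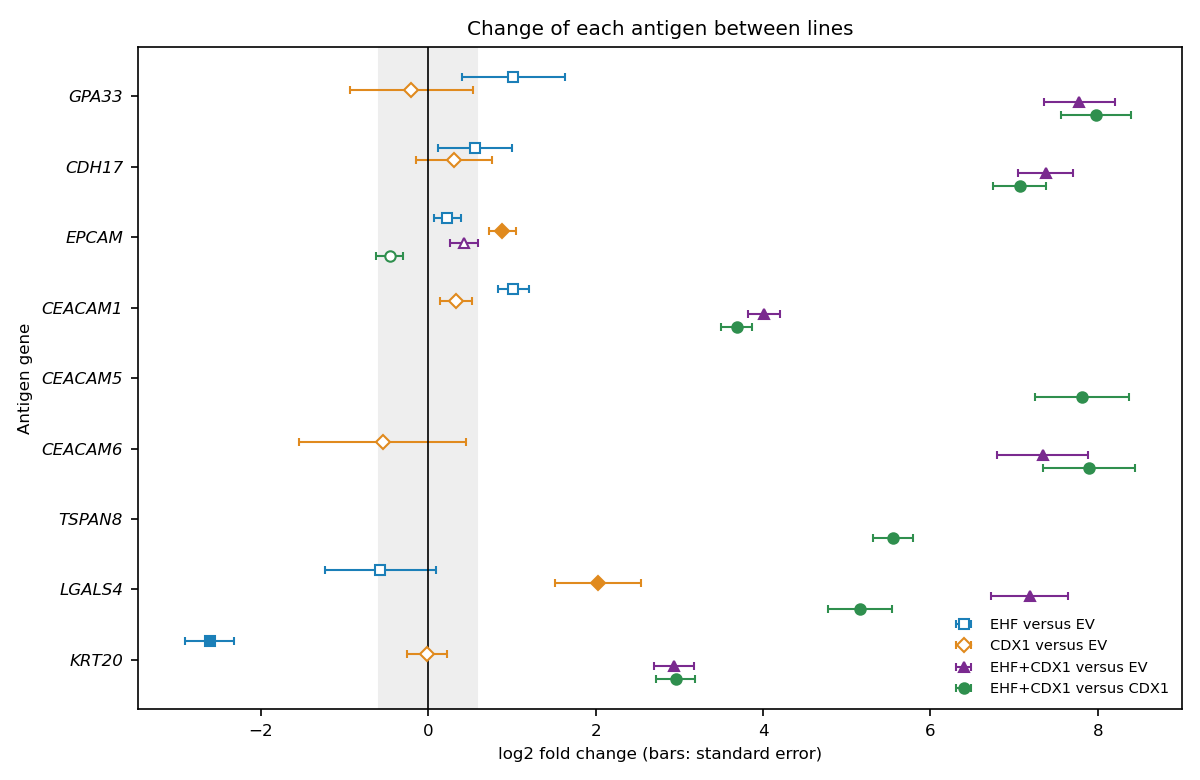
Log2 fold change of each antigen in 4 comparisons of lines, with bars of 1 standard error, filled symbols for changes that passed the 1.5-fold test, a grey band for changes below 1.5-fold, and values that depend on a line with at most 3 reads left out (CEACAM5 and TSPAN8 over HCT116EV, CEACAM6 in HCT116EHF). With both factors 8 antigens lie right of the band against HCT116CDX1 cells, and KRT20 lies left of it in HCT116EHF cells.

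Whether the effect of EHF depended on CDX1 was tested as the change from HCT116CDX1 to HCT116EHF+CDX1 minus the change from HCT116EV to HCT116EHF cells. This could be evaluated for 6 antigens with more than 3 reads in each line, and 5 of them were called with a larger change in the presence of CDX1, where 20.2% of all genes were called higher in this test and 18% lower (30.2% and 28.3% against no change). Of these 5, GPA33 and CDH17 could be tested only through the HCT116EHF+CDX1 libraries in which they were high. Among the 4 antigens that passed the minimum without that line, 3 were called. The difference in log2 fold change was 6.96 for GPA33 (SE 1.0, edgeR adjusted p = 1e-04), 6.51 for CDH17 (SE 0.63, edgeR adjusted p = 4.86e-06), 5.73 for LGALS4 (SE 0.81, edgeR adjusted p = 8.73e-05) and 5.57 for KRT20 (SE 0.37, edgeR adjusted p = 3.04e-07). For CEACAM1 it was smaller, 2.67 (SE 0.25, edgeR adjusted p = 4.23e-06). The value for GPA33 was 7.64 without HCT116EV replicate 3, and 4.4 and not called when all libraries were thinned to the smallest one (adjusted p = 0.0746 against 1.5-fold). LGALS4 was at 4.63 without HCT116EV replicate 3 and was still called. EPCAM gave -0.69 (SE 0.23, edgeR adjusted p = 0.0230) and was not called, but was called lower without HCT116EV replicate 3 (-0.97). The difference was not evaluated for CEACAM5, CEACAM6 and TSPAN8, since a line with at most 3 reads makes its value depend on the prior count. The dose of CDX1 rose between the lines compared, as given above, and EHF was lower in HCT116CDX1 than in HCT116EV cells, and the part of these dose differences in the result was not tested.

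Levels of different genes were compared per length, in the deposited log2 RPKM values. In HCT116EHF+CDX1 cells the order was EPCAM at 7.86 ± 0.04, LGALS4 at 4.37 ± 0.04, TSPAN8 at 3.37 ± 0.10, CEACAM1 at 3.08 ± 0.12, CDH17 at 3.06 ± 0.07, GPA33 at 2.71 ± 0.06, KRT20 at 2.54 ± 0.14, CEACAM5 at 1.61 ± 0.17 and CEACAM6 at 1.51 ± 0.12 log2 RPKM (SD, n = 3 each). Neighbours in this order whose libraries overlapped, and which were not separated, were CEACAM1 and CDH17, GPA33 and KRT20, and CEACAM5 and CEACAM6. The order depends on the normalization and gene lengths used. From TMM-scaled counts and GENCODE exon lengths, TSPAN8 was at 2.39 and CEACAM1 at 2.47 log2 RPKM, below CDH17 at 3.03, GPA33 at 2.69 and KRT20 at 2.55. Among all 15853 genes tested EPCAM stood at the 98.9th percentile in this line, LGALS4 at the 80.4th and CEACAM6 at the 39.0th, with the remaining antigens between LGALS4 and CEACAM6. In HCT116EV cells only EPCAM had a mean above 0 on this scale, at 7.28 ± 0.46, followed by KRT20 at -0.26 ± 0.39 and CEACAM1 at -0.90 ± 0.28. The other 6 lay between -3.13 and -6.40 log2 RPKM, most overlapping their neighbours, at levels set by a few reads and the offset added before the log was taken.

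**Figure D3:**
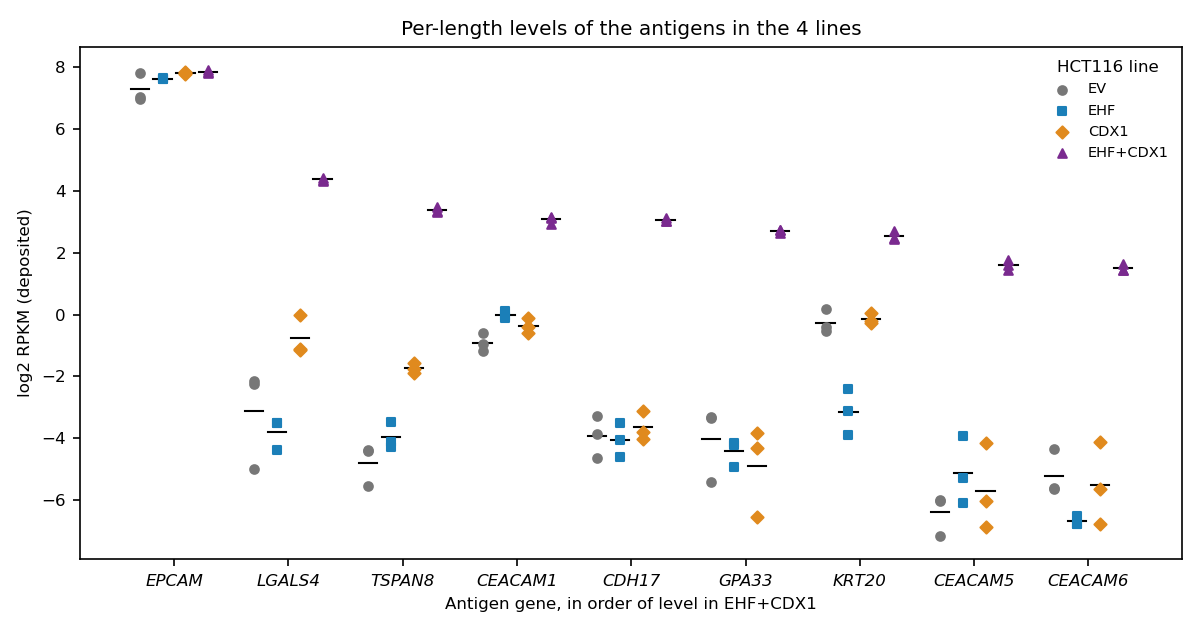
Deposited log2 RPKM of each antigen by line, 3 libraries each with a black line at the mean, in order of the level in HCT116EHF+CDX1 cells. EPCAM lies between 6.99 and 7.90 in all 12 libraries, and the other antigens lie between 1.43 and 4.42 in HCT116EHF+CDX1 libraries.

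Over the 12 libraries the log2 CPM of the 8 antigens other than EPCAM correlated with each other at r of 0.727 to 0.986, and with EPCAM at -0.0224 to 0.405. These values describe a pattern carried by 1 line, since libraries of a line are not independent. The genes most like each antigen by this measure were HNMT (r = 0.986) and CADPS (0.984) for GPA33, SEMA5A (0.989) and PLBD1 (0.988) for CDH17, SEMA7A (0.993) and CXCL1 (0.991) for EPCAM, IFI44 (0.990) and PIP5K1B (0.989) for CEACAM1, and ISX (0.991) and HNMT (0.988) for CEACAM5. They were LRATD1 (0.992) and ZNF93 (0.991) for CEACAM6, PSMB8 (0.986) and QPCT (0.986) for TSPAN8, AKR1C2 (0.982) and TRIM31 (0.977) for LGALS4, and TRABD2A (0.949) and GSPT2 (0.943) for KRT20. KRT20 had the weakest nearest neighbours of the 9.

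Relatives of the antigens were compared between HCT116EHF+CDX1 and HCT116EV cells, where 7.30% of all genes were called higher and 3.13% lower. Besides CEACAM1, CEACAM5 and CEACAM6, 2 genes of the CEACAM family were tested and neither was called (median log2 fold change 0.93, beside -0.03 over all genes). CEACAM19 was at 5.11 to 19.3 CPM in HCT116EV, 43.0 to 50.8 in HCT116CDX1 and 5.78 to 6.98 CPM in HCT116EHF+CDX1 libraries, and thus was highest with CDX1 alone. CEACAM7, another colonocyte antigen, held at most 5 reads in any line and was not tested. Of 5 galectins tested besides LGALS4, LGALS9 was called higher, at 0.215 to 0.809 CPM in HCT116EV and 9.47 to 12 CPM in HCT116EHF+CDX1 libraries (log2 fold change 4.39, SE 0.35, edgeR adjusted p = 2.68e-06), and LGALS1, the most abundant, was not called (0.66, SE 0.19). The median over these 5 galectins was 0.53. Among 25 tetraspanins besides TSPAN8, none was called higher and 1, TSPAN6, lower (log2 fold change -0.87, SE 0.13), a call lost without HCT116EV replicate 3, and their median was -0.31. CD81, the most highly expressed of those not called, was at 301 to 447 CPM in HCT116EV and 245 to 253 CPM in HCT116EHF+CDX1 libraries.

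Of 16 tested partners of EPCAM and of the cadherins in cell adhesion, 3 were called higher and 1 lower, with a median of -0.19. CLDN1, a tight junction claudin, had 13 reads in HCT116EV and was at 12.7 to 14.2 CPM in HCT116EHF+CDX1 libraries (log2 fold change 6.69, SE 0.42), and it reached the minimum only there. CLDN3 rose by 1.29 on the log2 scale (SE 0.22), while ADAM10, a membrane protease that sheds adhesion molecules, fell by 0.87 on the log2 scale (SE 0.11). CD44, the most abundant gene not called, had a log2 fold change of 0.72 (SE 0.17). Besides KRT20, none of the 5 simple keratins was called between HCT116EHF+CDX1 and HCT116EV cells, and KRT8, the most abundant, had a log2 fold change of -0.05 (SE 0.15). The median of the 5 was -0.36. In HCT116EHF cells 2 of the 5 were called lower than in HCT116EV cells, as KRT20 was (2.65% of all genes lower). These were KRT7 (log2 fold change -3.93, SE 0.55) and KRT23 (-2.38, SE 0.19). In the test of whether the change with EHF depended on CDX1, all 5 were called higher, as KRT20 was (20.2% of all genes). The difference was 3.67 for KRT7 (SE 0.71) and 6.76 for KRT23 (SE 0.29).

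Other colonocyte markers changed in part. Of 20 listed genes 8 were tested, and 4 of these were called higher and none lower in HCT116EHF+CDX1 than in HCT116EV cells, with a median log2 fold change of 1.98 (7.30% of all genes higher, 3.13% lower). Of the 4, VIL1, SELENBP1 and PHGR1 reached 0.5 CPM only in HCT116EHF+CDX1 libraries and could be tested only through that line. In HCT116CDX1 cells 4 of the 8 were also called higher than in HCT116EV cells and 2 lower, with a median of 1.56 (21.3% of all genes higher, 23.3% lower). Those 4 were CA2, MUC12, MUC13 and SELENBP1, not the same set. CA2 was at 86.7 to 118 CPM in HCT116CDX1 and 22.4 to 23.7 CPM in HCT116EHF+CDX1 libraries. MUC12 was at 22.6 to 37.3 and 0.760 to 1.99 CPM in these lines. Of the 8, 4 were called higher and 2 lower in HCT116EHF+CDX1 than in HCT116CDX1 cells (22.3% and 18.7% of all genes). VIL1 (villin, of the brush border) was at most 0.110 CPM in HCT116EV and 47.6 to 53.1 CPM in HCT116EHF+CDX1 libraries (log2 fold change 9.66, SE 0.51), and MUC13, a membrane mucin, at most 0.625 CPM and 41.1 to 44.4 CPM (7.05, SE 0.50). With CDX1 alone MUC13 was already at 5.43 to 7.02 CPM (log2 fold change 4.30 over HCT116EV, SE 0.49). SELENBP1 had no read in HCT116EV and was at 8.66 to 10.0 CPM in HCT116EHF+CDX1 libraries. PHGR1 rose from 0.172 to 0.276 CPM to between 2.13 and 2.83 CPM. It held 23 reads in HCT116EV, 1 in HCT116EHF and 1 in HCT116CDX1 cells, all below 0.5 CPM. It is among the genes called lower in HCT116CDX1 cells, but with 1 read the fit rests on the prior count and was not evaluated. CKB, the most abundant not called, had a log2 fold change of -0.22 (SE 0.12). The other 12, SLC26A3, CA1, CA4, AQP8, MS4A12, GUCA2A, GUCA2B, FABP1, CEACAM7, MUC17, PIGR and ALPI, were below the minimum. Of these, FABP1 held 75 reads in HCT116EHF+CDX1 cells and none elsewhere, and AQP8 held 56 in HCT116CDX1 and 3 in HCT116EHF+CDX1 cells.

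**Figure D4:**
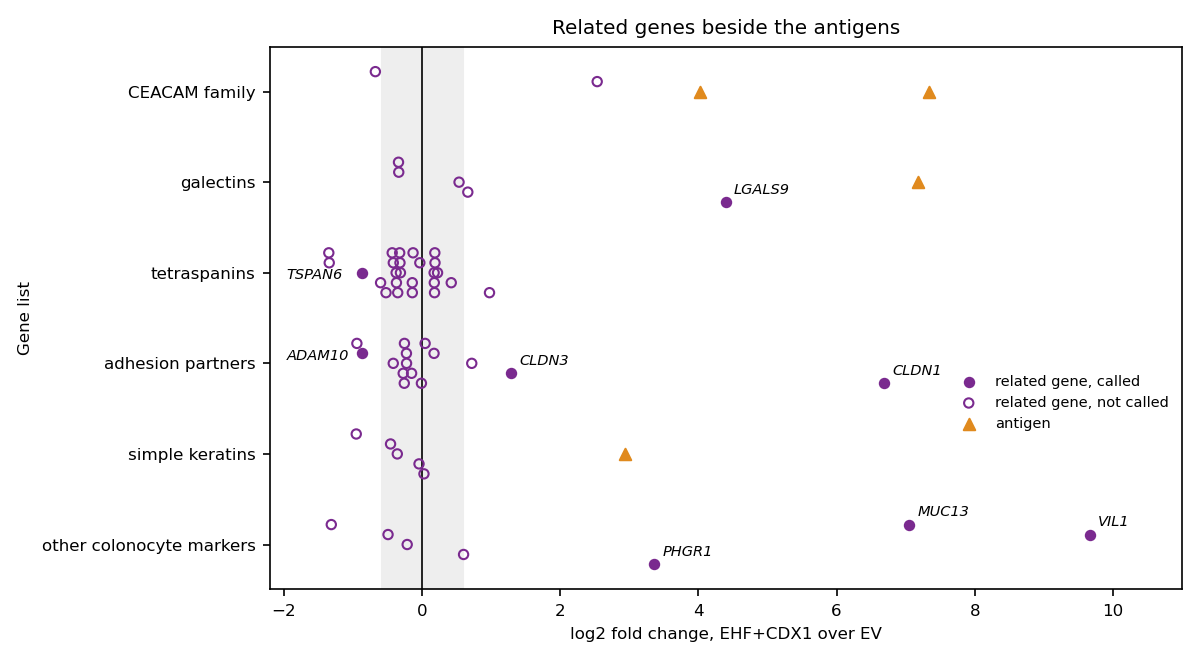
Log2 fold change of HCT116EHF+CDX1 over HCT116EV cells for tested genes of 6 related lists, 1 point per gene, with the antigens as triangles, filled points for genes that passed the 1.5-fold test, a grey band for changes below 1.5-fold, and genes without a read in HCT116EV cells left out (CEACAM5, TSPAN8 and SELENBP1), as is 1 adhesion partner not reported here. Most relatives lie near the band, while VIL1, MUC13, CLDN1, LGALS9 and PHGR1 lie with the antigens to the right.

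Marker genes of other cell types were examined beside these increases. The 5 leukocyte genes summed to 2.37 to 10.7 CPM in HCT116EV, 13.0 to 14.1 in HCT116EHF, 77.2 to 88.6 in HCT116CDX1 and 40.4 to 44.4 CPM in HCT116EHF+CDX1 libraries. CD68 and LYZ made up nearly all of this, while PTPRC and CD3E held at most 11 and 4 reads in any line. LYZ, which epithelial cells also make, was called higher in HCT116EHF+CDX1 than in HCT116EV cells (log2 fold change 7.02, SE 0.36). CD68 was also called higher there (2.05, SE 0.40), and in HCT116CDX1 cells (3.86, SE 0.42). The 3 endothelial genes summed to at most 1.87 CPM in any library. The 6 fibroblast genes summed to 33.5 to 75.3 CPM in HCT116EV, 38.9 to 43.7 in HCT116EHF, 167 to 219 in HCT116CDX1 and 36.4 to 37.9 CPM in HCT116EHF+CDX1 libraries. Nearly all of this came from COL1A1, which was called higher in HCT116CDX1 than in HCT116EV cells (log2 fold change 1.98, SE 0.26). COL1A2, DCN, LUM and PDGFRA had no read in HCT116EV cells and at most 8 in HCT116EHF+CDX1 cells, but PDGFRA held 47 reads in HCT116EHF cells. COL3A1 went the other way, with 123 reads in HCT116EV, 14 in HCT116EHF, 12 in HCT116CDX1 and 13 in HCT116EHF+CDX1 cells, and was not tested. The part of these genes in the results was not tested.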

How the data were processed

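Polyadenylated RNA from 4 HCT116 lines (3 libraries each) was sequenced as directional paired-end libraries by the authors, aligned to GRCh38 with Subread 2.0.0 and counted over RefSeq exons with featureCounts 2.0.0 (versions from the submitters' processing notes). The deposited raw counts per gene were used for the tests reported, and the deposited log2 RPKM values, which the authors made after a filter on low CPM and quantile normalization, were used to compare levels between genes and in 1 of the alternatives. The strand setting of the counting was not given in the sources used here. Genes without a symbol held 0.0610% of the counts.

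Counts were analysed with edgeR 4.0.16 in R 4.3.3. Genes at 0.5 CPM or more in at least 3 of the 12 libraries were kept, scaled by TMM and fitted with the quasi-likelihood model with 1 term per line. Calls required a change beyond 1.5-fold by glmTreat, at a p below 0.05 after Benjamini-Hochberg adjustment over the 15853 genes kept. Fitted values that rest on the prior count (2) because a line held at most 3 reads were not printed, but calls from such fits are included in the counts of genes called. Ratios of pooled reads carry exact 95% intervals, and the limit for a line at 0 was 3 reads over the line. Exact permutation tests of 3 against 3 libraries cannot go below p = 0.1 and were not used for calls. Alternatives used limma 3.58.1, DESeq2 1.42.0, other scalings, filters, a replicate block and each library left out. The code was tested on simulated data.

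The antigens, the related lists (galectins, tetraspanins and the others) and the tests were chosen with earlier results of these data known. All 9 antigens were named, as were the 2 genes nearest each in pattern and, per related list, up to 4 called genes with the largest change and no overlap between the lines, and the most abundant gene not called. CEACAM7, FABP1, LYZ, KRT7, KRT23, CA2, MUC12, AQP8 and COL3A1 were named after their values were seen. Of the listed genes, 1 adhesion partner and 1 leukocyte marker are not reported here by name. Promoter sequences and positions were taken from RefSeq on GRCh38.p14, where 7 of the 9 antigens had a promoter entry.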

Additional observations from a re-analysis of the deposited data

Results flagged for a closer look

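The change with EHF was larger in the presence of CDX1 than in its absence for 5 antigens, by the test of that difference over all genes (edgeR 1.5-fold test). The difference in log2 fold change was 6.96 for GPA33, 6.51 for CDH17, 5.73 for LGALS4, 5.57 for KRT20 and 2.67 for CEACAM1, each positive beside a share of 20.2% of all genes called in the same direction. GPA33 and CDH17 could be tested only through the HCT116EHF+CDX1 libraries in which they were high. For KRT20 the parts have opposite signs, -2.61 from HCT116EV to HCT116EHF and 2.96 from HCT116CDX1 to HCT116EHF+CDX1 cells. For GPA33 and CDH17 the change without CDX1 was 1.02 (SE 0.61, and 0.33 without HCT116EV replicate 3) and 0.56 (SE 0.44), neither called. CDX1 itself was at 525 CPM in HCT116CDX1 and 5419 CPM in HCT116EHF+CDX1 cells, and the interaction of EHF with CDX1 and this difference in dose cannot be told apart in these lines.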

How the results depend on the processing

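In HCT116EHF+CDX1 cells the 8 antigens called higher than in each of the other lines were also 8 in every setting that kept all libraries. With a library left out the count ran from 3 to 9 against HCT116EV and from 3 to 8 against HCT116EHF and HCT116CDX1, and was 3 whenever an HCT116EHF+CDX1 library was left out, since the antigens at the minimum only in that line then fail the filter. The dependence of EHF on CDX1 gave 6 antigens called higher in the reported fit, of which 5 could be evaluated, and 8 with voom or deposited log2 RPKM. These 8 include CEACAM5, CEACAM6 and TSPAN8, which were not evaluated. Of all 15853 genes, 2329 were called higher with voom and 2298 with deposited log2 RPKM. With a library left out the count was 3 to 6 (3 for the same reason). Antigens called lower numbered 0 to 1 (1 without HCT116EV replicate 3, and 1 against no change). Against HCT116EV, antigens called higher in HCT116EHF cells were 1 in the reported fit, 0 with voom, DESeq2, only the lines compared, thinned counts or deposited log2 RPKM, 2 with RLE factors or library totals, 3 against no change, and 0 to 2 with a library left out. In HCT116CDX1 cells they were 3, but 0 with only the lines compared or thinned counts, and 1 to 3 with a library left out (1 without HCT116CDX1 replicate 1). With only the lines compared, 596 of 14942 genes were called higher in HCT116EHF and 2605 of 14869 in HCT116CDX1 cells. Library totals gave 995 of 15853 higher in HCT116EHF cells, and thinned counts 2897 of 16094 higher in HCT116CDX1 cells. Between HCT116EHF and HCT116CDX1 cells, 1 antigen was higher with library totals and 1 against no change, thinned counts gave 2 higher and 0 lower, and against no change 1 antigen was lower in HCT116EHF+CDX1 than in HCT116CDX1 cells. Over all genes, library totals gave 5040 of 15853 higher in HCT116EHF than in HCT116CDX1 cells, and thinned counts 2832 of 16094 higher and 2428 lower.

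Signs reversed for EPCAM in HCT116EHF+CDX1 over HCT116CDX1 cells (0.0369 with voom and 0.0387 with deposited log2 RPKM) and for TSPAN8 in HCT116EHF over HCT116CDX1 cells (0.99 with thinned counts); the cause was not tested. Over 784 values of 38 single-gene results under these settings, 746 kept their direction and their side of the threshold, 23 lost and 12 gained a call. Against no change, 16.9% of all genes were higher in HCT116EHF+CDX1 than in HCT116EV cells and 16.7% lower. There 1 of 2 related CEACAM genes was higher, and of 5 galectins 3 were higher and 1 lower. Of 25 tetraspanins 2 were higher and 7 lower, of 16 adhesion partners 4 and 2, of 5 keratins 0 and 2, and of 8 colonocyte markers 4 and 1. Without HCT116EV replicate 3, 1768 of 15758 genes were called higher and 674 lower by the 1.5-fold test. The lists then gave 1 CEACAM gene, 2 galectins, 4 adhesion partners, 4 colonocyte markers and 1 keratin higher, and 1 adhesion partner, 1 keratin and 0 tetraspanins lower. From TMM-scaled counts and GENCODE exon lengths, the level in HCT116EHF+CDX1 cells was 7.20 for EPCAM, 4.0 for LGALS4, 2.47 for CEACAM1 and 2.39 for TSPAN8 in log2 RPKM.

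Same-numbered libraries did not deviate together (r of -0.0653 to 0.0802), so they share only a number. With the replicate number as a block, 1 call was lost, that of TSPAN8 in HCT116EHF below HCT116CDX1 cells (log2 fold change -1.26), and the counts of antigens called were otherwise as reported, 8 higher in HCT116EHF+CDX1 cells in each comparison. Depth limits the comparisons among HCT116EV, HCT116EHF and HCT116CDX1 cells for the antigens that held few reads there.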
